A study of Canis lupus familiaris with 3 samples.

Results

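The genes described here are GADD45A, BTG1, SESN1, SESN2 and NUPR1, which are linked to growth arrest and cell stress. They were chosen by gene symbol with earlier results of the same comparison in view. Their ratios, and their adjusted p-values from a fit over the whole array, are therefore given only as a description. The array annotation held all 5, each as 1 human cDNA clone printed in 2 adjacent spots, which makes 10 of the 27648 spots and 5 of the 5508 named genes with a value on all 3 arrays. All 10 spots had a value on every array.

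Dog MDCK kidney epithelial cells transfected with E47, a helix-loop-helix factor made from the gene TCF3, were compared with MDCK-CMV control cells, and both were grown in the same serum-containing medium. The comparison addresses which transcripts differ when an epithelial cell carries this repressor of E-cadherin. Whether the transfectants are 1 clone or a pool, and what promoter drives E47, is not stated in the sources used here. Each of 3 two-colour arrays held E47 RNA in one dye and control RNA in the second dye. A single array carried extraction 1, with its E47 RNA in Cy5. Extraction 2 was measured as a dye swap on the remaining 2 arrays, 1 with E47 in Cy3 and 1 with E47 in Cy5. The design text names the control of the Cy5 arrays only as MDCK cells, while the sample labels give MDCK-CMV cells on every array.

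GADD45A encodes a small nuclear protein that is induced by DNA damage and other stress, binds PCNA and slows entry into mitosis. BTG1 belongs to the BTG/TOB family of antiproliferative proteins, which contact the CCR4-NOT deadenylase and thereby shorten mRNA tails. The sestrins SESN1 and SESN2 restrain the growth kinase complex mTORC1 and act in the defence against oxidants. In human and mouse cells SESN1 is known to respond to DNA damage, and SESN2 is also a target of the stress factor ATF4. NUPR1 encodes a small chromatin-associated protein that is induced by many kinds of stress, among them stress of the endoplasmic reticulum.

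Values are log2 ratios of E47 over control for each spot, as deposited, and the mean gives each extraction equal weight. The direction is likely but not stated: the labels list E47 cells in the first channel of every array, and CDH1, which encodes E-cadherin, was at −3.59. If the values ran the other way, every higher would become lower. The logarithm was read as base 2. Read as natural, the fold sizes of GADD45A, BTG1 and SESN1 given below would be 6.14, 3.26 and 3.96. A ratio shows no level, so the presence of MDCK cell markers could not be checked and levels of different genes were not compared. All 6 measured epithelial markers were called lower, with ratios from −3.59 to −0.92, beside 3.85% of all named genes. Of 2 measured markers each of fibroblasts, leukocytes and endothelium, COL1A2 at 0.68 and PTPRC at 1.03 were called higher. The share called higher over all named genes was 5.34%. The other fibroblast and leukocyte markers, THY1 at 0.02 and CD14 at −0.04, did not pass, nor did the endothelial pair. The part of these markers in the ratios below was not tested. In a bulk RNA ratio, fewer cells that express a gene and less of its RNA per cell cannot be told apart. The arrays gave between 24771 and 25537 spot values each. The SD of the ratios over named genes was 0.55 for extraction 1, against 0.43 and 0.48 for the Cy3 and Cy5 arrays of extraction 2.

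The 5 genes did not move together. GADD45A was 3.52-fold lower and BTG1 2.27-fold lower in E47 cells, SESN1 was 2.60-fold higher, and SESN2 and NUPR1 were at −0.18 and 0.18 on the log2 scale. In the limma fit over all 14008 features, 3 of the 5 had an adjusted p under 0.05, beside 9.19% of the named genes. Of the 5, 2 were lower beside 3.85% and 1 was higher beside 5.34%. These counts describe how the genes were chosen and support nothing. Each of the 5 had the same sign of its averaged ratio on all 3 arrays, as did 63.3% of the named genes. GADD45A and SESN1, 2 of the 5, differed by 2-fold or more on every array, beside 2.21% of the named genes.

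**Figure D1:**
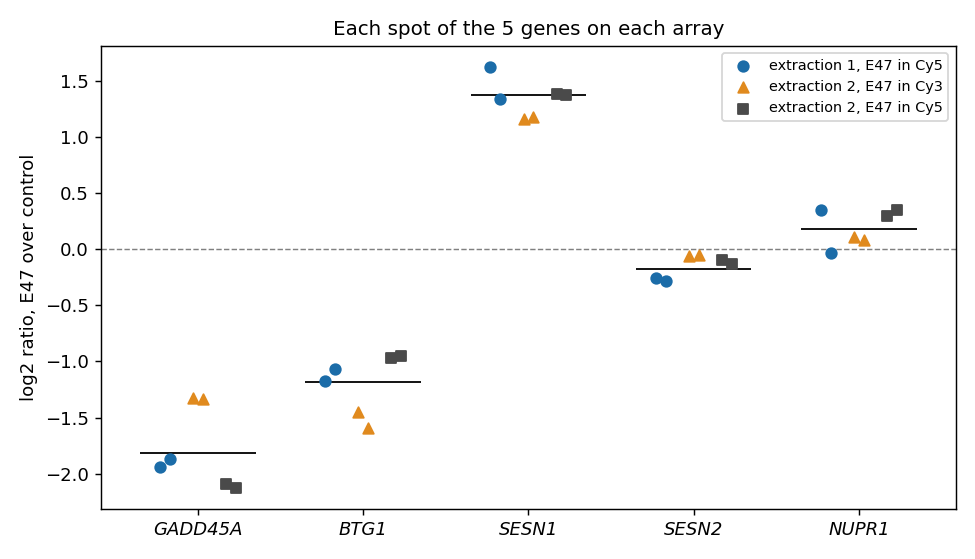
Log2 ratio of E47 over control for each of the 10 spots (vertical axis) of the 5 genes (horizontal axis), with 1 symbol per array and a line at the mean of the 2 extractions. All spots of GADD45A and BTG1 lie below −0.9, all spots of SESN1 lie above 1.1, and the spots of SESN2 and NUPR1 lie near 0.

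GADD45A had the lowest ratio of the 5. Its 2 spots read −1.94 and −1.87 in extraction 1, −1.33 and −1.34 on the Cy3 array of extraction 2, and −2.09 and −2.12 on the Cy5 array. The 2 spots differed by at most 0.072 on any array, so the spread lay between arrays. The mean was −1.81 ± 0.13 (SD, n = 2 extractions), which leaves 28.4% of the control signal. Of the 5508 named genes, 18 had a lower mean. By array, 37 genes were lower in extraction 1, and 38 and 14 on the Cy3 and Cy5 arrays of extraction 2. In units of the SD over named genes the arrays gave −3.45, −3.13 and −4.43, so the Cy5 array of extraction 2 placed it furthest out. Without that array the mean was −1.62 and the limma call was lost, at an adjusted p of 0.0529.

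BTG1 was lower on every array, with the arrays in another order. Its spots read −1.17 and −1.07 in extraction 1, −1.45 and −1.60 on the Cy3 array of extraction 2, and −0.97 and −0.95 on its Cy5 array. The Cy3 array thus gave the lowest values for BTG1 and the highest for GADD45A. The mean of BTG1 was −1.18 ± 0.09 (SD, n = 2 extractions), or 44.1% of the control signal, and 78 named genes had a lower mean. On the Cy3 array only 28 genes were lower, compared with 131 in extraction 1 and 148 on the Cy5 array. Without the Cy5 array of extraction 2 its mean was −1.32 and its limma call was lost too, at an adjusted p of 0.0540.

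SESN1 had the highest ratio of the 5. The spots read 1.62 and 1.34 in extraction 1, 1.16 and 1.18 on the Cy3 array of extraction 2, and 1.38 and 1.38 on its Cy5 array. The gap of 0.28 between the 2 spots in extraction 1 exceeded that of 94.6% of 8020 pairs of adjacent spots of 1 clone on that array. Both spots were still above every SESN1 value of the Cy3 array. The mean was 1.38 ± 0.15 (SD, n = 2 extractions), and 51 named genes had a higher mean. Scaled by the SD over named genes, the 3 arrays gave 2.67, 2.74 and 2.90, a narrower range than for GADD45A or BTG1.

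SESN2, the paralog of SESN1, was close to 0. Its spots read −0.26 and −0.28 in extraction 1, −0.06 and −0.06 on the Cy3 array of extraction 2, and −0.10 and −0.13 on the Cy5 array. The mean was −0.18 ± 0.13 (SD, n = 2 extractions), or 88.4% of the control signal, and 1556 named genes were lower. The sign was the same in all 6 readings, but extraction 1 lay further from 0 than extraction 2. The ratio of SESN1 exceeded that of SESN2 by 1.75 in extraction 1, and by 1.22 and 1.49 on the Cy3 and Cy5 arrays of extraction 2, with a mean difference of 1.55 on the log2 scale. This difference follows from the choice of the genes and was not tested. SESN3, the other sestrin, is not analysed here.

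NUPR1 was also close to 0, on the other side. In extraction 1 its spots read 0.34 and −0.03, and this gap of 0.38 exceeded that of 96.6% of the spot pairs on that array. On the Cy3 array of extraction 2 the spots read 0.11 and 0.08, and on the Cy5 array 0.30 and 0.35. One of its 6 readings was therefore below 0. The mean was 0.18 ± 0.04 (SD, n = 2 extractions), and 1409 named genes were higher. The small SD arose from averaged values of 0.16 and 0.21 and does not hold the disagreement between the spots.

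**Figure D2:**
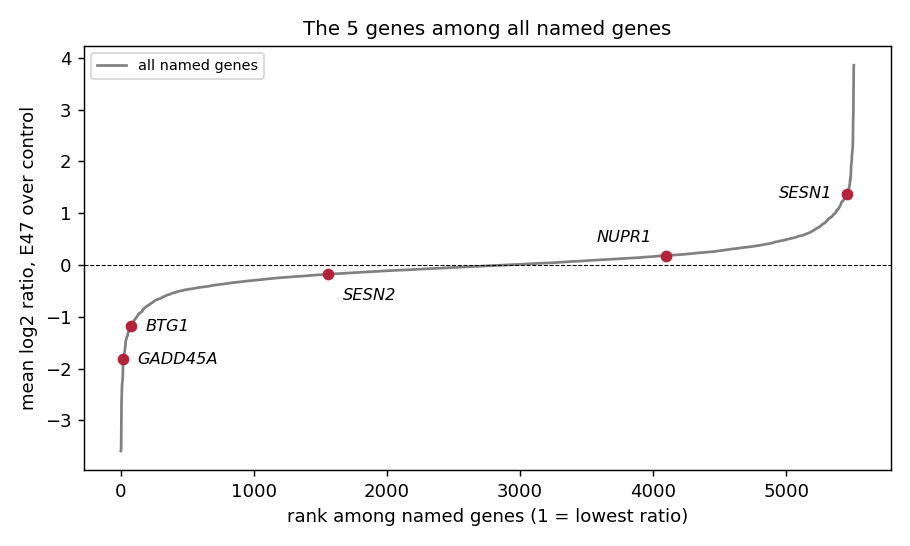
Mean log2 ratio of E47 over control (vertical axis) for the 5508 named genes in order of rank (horizontal axis, 1 is the lowest), with the 5 genes as red points. GADD45A and BTG1 lie in the steep lower end with 18 and 78 genes below them, SESN1 lies in the upper end with 51 above it, and SESN2 and NUPR1 lie on the flat middle.

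The gap between the arrays of the dye swap was wider for GADD45A and BTG1 than for the other 3 genes. In extraction 2 the Cy5 reading of GADD45A was 0.78 below its Cy3 reading, a gap larger in size than that of 97.4% of named genes. The gap of BTG1 had the opposite sign, with the Cy5 reading 0.56 above the Cy3 reading, and exceeded that of 94.5% of named genes. The median size of this gap was 0.17 over all named genes and 0.23 over the 212 genes called lower. Of those 212 genes, 12 had a gap at least as large as that of GADD45A and 24 one at least as large as that of BTG1. SESN1, SESN2 and NUPR1 had gaps of 0.21, −0.06 and 0.23. Because the swap was averaged, these gaps do not enter the SD between extractions, and extraction 1 has no swap of its own. With a dye term fitted over the 3 arrays GADD45A was at −1.67, BTG1 at −1.28, SESN1 at 1.30, SESN2 at −0.12 and NUPR1 at 0.17. The extractions themselves differed by 0.19 for GADD45A, 0.12 for BTG1, 0.21 for SESN1, 0.19 for SESN2 and 0.05 for NUPR1 in size, and the median over all named genes was 0.13.

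**Figure D3:**
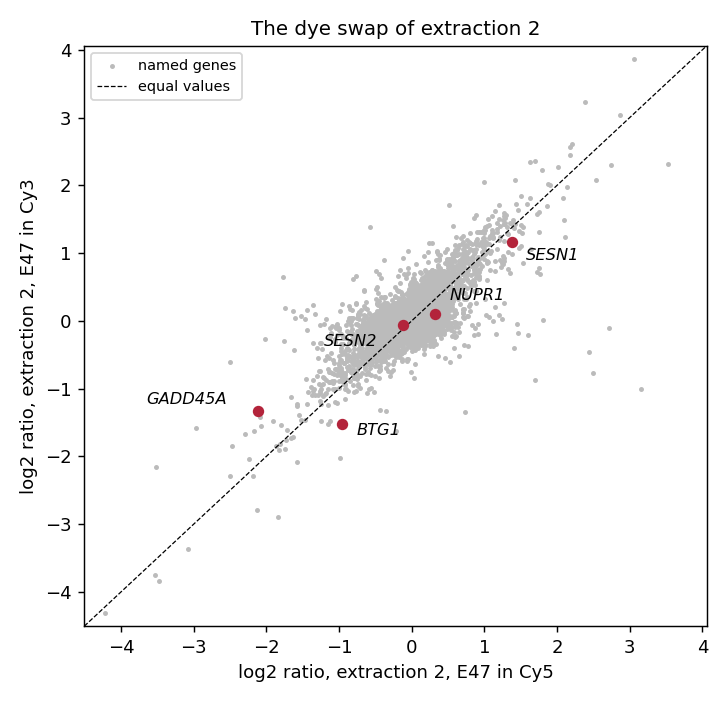
Log2 ratio of E47 over control on the array with E47 in Cy5 (horizontal axis) and on the array with E47 in Cy3 (vertical axis) of extraction 2. Grey points are named genes, red points the 5 genes, and the dashed line marks equal values. GADD45A lies above the line by 0.78 and BTG1 below it by 0.56, while SESN1, SESN2 and NUPR1 lie nearer to it.

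Of the relatives of GADD45A, GADD45B did not pass the test and GADD45G was incompletely measured. GADD45B, another stress-induced GADD45 protein, averaged −0.33 in extraction 1, and −0.10 and −0.33 on the Cy3 and Cy5 arrays of extraction 2, with an adjusted p of 0.141 in limma. Its 3 clones had means of −0.45, 0.02 and −0.39. One spot of the first of these clones read −1.52 on the Cy5 array of extraction 2, where its neighbour of the same clone read −0.14. The spots of the second clone, at 0.62 and −0.12 on that array, also differed. GADD45G had no spot with a value on all 3 arrays and was left out of the fit. One GADD45G clone read −2.79 and −2.67 in extraction 1 and −1.79 in its single reading on the Cy5 array of extraction 2, but −0.22 in its single reading on the Cy3 array. The other clone had values on the Cy3 array alone, of 0.10 and −0.05. The Cy5 and Cy3 readings of GADD45G therefore do not give a common size for the difference. A human clone may bind transcripts of several related dog genes, so the family members may not be fully separated.

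Within the BTG/TOB family BTG3 ran opposite to BTG1. BTG3, an antiproliferative protein of the same family, had spots at 0.94 and 0.75 in extraction 1, 0.92 and 1.08 on the Cy3 array of extraction 2, and 0.56 and 0.62 on its Cy5 array. It rose by 0.82 ± 0.03 (SD, n = 2 extractions) on the log2 scale, with an adjusted p of 0.0273 in limma, a call that was lost without the Cy5 array of extraction 2. For BTG3, as for BTG1, the Cy3 array gave the value furthest from 0. In extraction 2 the Cy5 reading lay below the Cy3 reading in 193 of the 294 genes called higher, as for BTG3. The same held for 157 of the 212 genes called lower, but not for BTG1. Over all 5508 named genes it held for 3319, so this order was common on these arrays. TOB1 and TOB2, which also bind the CCR4-NOT complex, were at 0.06 and −0.04 with adjusted p-values of 0.623 and 0.757. Of the 6 measured genes in the list of this family and its partners, BTG1 aside, 1 rose, none fell and 5 did not pass, beside 5.34% of the named genes called higher and 3.85% called lower. The list median was 0.07. The median over all named genes was −0.02.

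**Figure D4:**
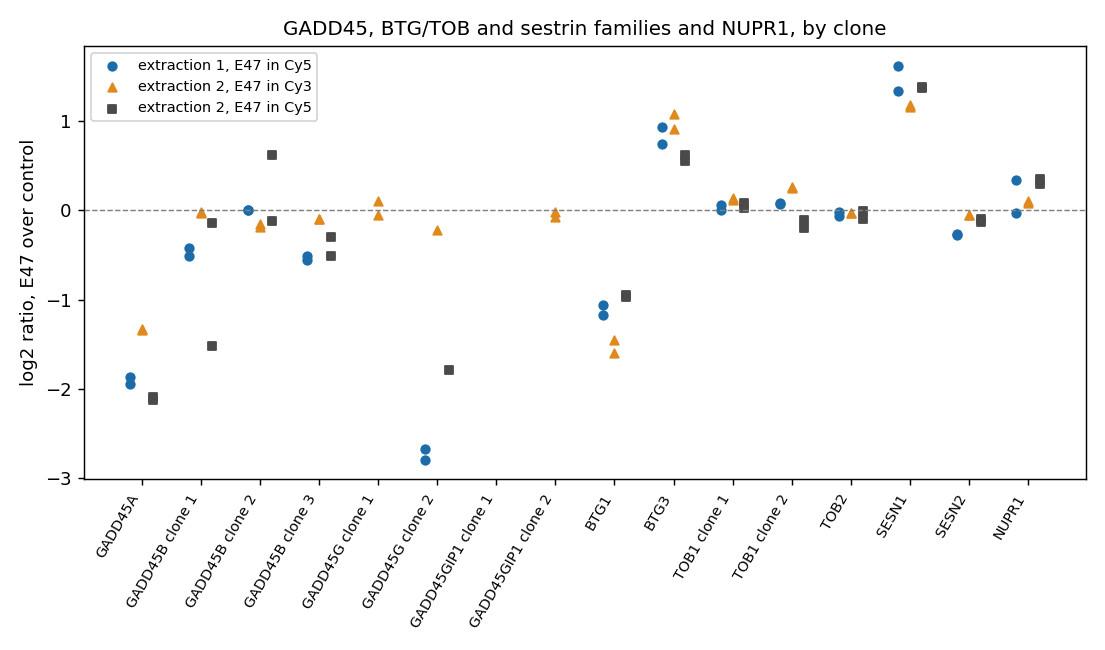
Log2 ratio of E47 over control (vertical axis) for each spot of the GADD45, BTG/TOB and sestrin families and NUPR1, by clone (horizontal axis), with 1 symbol per array. The first GADD45GIP1 clone has no value. GADD45A and BTG1 lie below 0 on every array, BTG3 and SESN1 lie above 0 on every array, and the second GADD45G clone is low on the Cy5 arrays and near 0 on the Cy3 array.

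Of the GADD45 partners, CDK1, the mitotic kinase that GADD45A restrains, was higher on every array. It read 1.38 in extraction 1, 1.55 on the Cy3 array of extraction 2 and 1.27 on the Cy5 array, and rose by 1.40 ± 0.02 (SD, n = 2 extractions), with an adjusted p of 0.0194 in limma. Its 2 clones had the same mean of 1.40. Among the 4 measured genes of this list, GADD45A aside, CDK1 rose, none fell and 3 did not pass, beside shares of 5.34% and 3.85% of all named genes. The list median was 0.31. PCNA, the DNA polymerase clamp, was at 0.54 and MAP3K4, a stress kinase that GADD45 proteins bind, at 0.08. Both names were chosen after their values were seen.

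The genes of the sestrin arm, which connects amino acid and energy sensing to mTORC1, had a median near 0. Of 15 measured genes, the sestrins aside, 1 fell and none rose, a count near the shares of 3.85% and 5.34% over all named genes, and the median was −0.13. The one that fell was DDIT4, an inhibitor of mTORC1 that is induced by hypoxia and stress, at −1.04 ± 0.32 (SD, n = 2 extractions) with an adjusted p of 0.0416. It read −1.27 in extraction 1, and −0.84 and −0.79 on the Cy3 and Cy5 arrays of extraction 2. Its call was lost without the Cy5 array and with incomplete spots kept.

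NUPR1 was set beside the other genes of the ATF4 arm, the branch of the stress response that raises amino acid synthesis when translation is held back. Of 9 measured genes of this list, NUPR1 aside, 7 fell while 1 rose, beside 3.85% and 5.34% of the named genes, and the list median was −1.04. That ATF4, HERPUD1 and DDIT4 fell was known when the list was made. HERPUD1, a protein of endoplasmic reticulum degradation, read −2.41 in extraction 1, and −2.03 and −2.23 on the Cy3 and Cy5 arrays of extraction 2. ASNS, which makes asparagine and is a textbook ATF4 target, read −1.67, −1.42 and −2.08 in the same order. ATF4 itself read −1.64, −1.76 and −1.73. These 3 genes each had an adjusted p of 0.0194 in limma.

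PPP1R15A, a phosphatase subunit related in name and stress induction to the GADD genes, read −1.41, −0.58 and −1.19, and its clones were at −1.59 and −0.70. ATF3, a stress-induced transcription factor, was at −0.93 ± 0.01 (SD, n = 2 extractions). PPP1R15A and ATF3 had adjusted p-values of 0.0416 and 0.0241, and their calls were lost when the Cy5 array of extraction 2 was removed (adjusted p = 0.158 and 0.0572). PPP1R15A lost its call also with incomplete spots kept, at 0.0554. CEBPG, a partner of ATF4, was the seventh that fell, at −0.92, and VLDLR, a lipoprotein receptor, was the one that rose, at 0.75. CEBPG and VLDLR also lost their calls when that Cy5 array was removed, and VLDLR without the Cy3 array and with a dye term. EIF2S1, the translation factor whose phosphorylation starts this response, did not pass, at 0.34 and above 0 on all 3 arrays. These 3 genes were named after their values were seen. NUPR1, at 0.18, thus lay below EIF2S1 and VLDLR and above the other 7 genes of its list, a position that was not tested.

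Among apoptosis genes of the DNA damage response, 1 of 11 measured genes fell and none rose, with a median of 0.01. The shares over all named genes, here and for the next 2 lists, were 3.85% lower and 5.34% higher. BAX, which permeabilises mitochondria, fell by 0.94 on the log2 scale, with array values of −1.04, −0.69 and −1.01 and an adjusted p of 0.0269. Its clones were at −1.19 and −0.46, and its call was lost without the Cy5 array of extraction 2, at 0.0838. Among its genes of repair, metabolism and secretion, 1 of 14 fell and none rose, with a median of −0.04. That gene was FOS, an immediate early transcription factor, at −0.87 with an adjusted p of 0.0429. The clones of FOS were at −1.33 and −0.41, and the second of these read 0.01 on the Cy3 array. FOS lost its call without the Cy5 array, at 0.116, and with incomplete spots kept, at 0.0564.

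Of 13 measured CDK inhibitors and growth arrest genes, 1 rose and 1 fell, and the median was −0.04. PLK2, a kinase induced by serum and by stress, fell by 0.84 on the log2 scale, with array values of −0.75, −0.78 and −1.10 and an adjusted p of 0.0317. GAS1, a membrane protein of growth-arrested fibroblasts, was called higher at 0.93 with an adjusted p of 0.0247, but its 2 clones were at −1.60 and 3.45. A single value for GAS1 therefore averages clones of opposite sign. Both calls were lost when the Cy5 array of extraction 2 was removed, with adjusted p-values of 0.0717 and 0.0744, and with scaled arrays, at 0.0589 and 0.0559. CDKN1A, the CDK inhibitor p21, read −0.28, 0.02 and −0.19 and did not pass (adjusted p = 0.268); it was named after its value was seen.

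In the list of FOXO factors and their regulators only the kinases SGK1, AKT1 and AKT2 had a value on every array. SGK1, a serum- and glucocorticoid-induced kinase, fell by 0.90 on the log2 scale, with array values of −1.09, −0.79 and −0.63 and an adjusted p of 0.0442. Its call was lost under 4 alternatives, among them the removal of either array of extraction 2. The other 2 did not pass, and the list median was 0.17. Over the 9 lists, 1 of which is not described, 84 genes other than the 5 were measured, of which 4 rose, beside 5.34% of the named genes, and 11 fell, beside 3.85%, and the median was −0.05. Without the Cy5 array of extraction 2 these counts were 1 and 3. The 4 genes counted as higher include GAS1, whose 2 clones had opposite signs. Of the 11 that fell, 7 belong to the ATF4 list, which was made with the fall of ATF4, HERPUD1 and DDIT4 known. The pooled count of lower genes therefore rests mostly on that list.

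**Figure D5:**
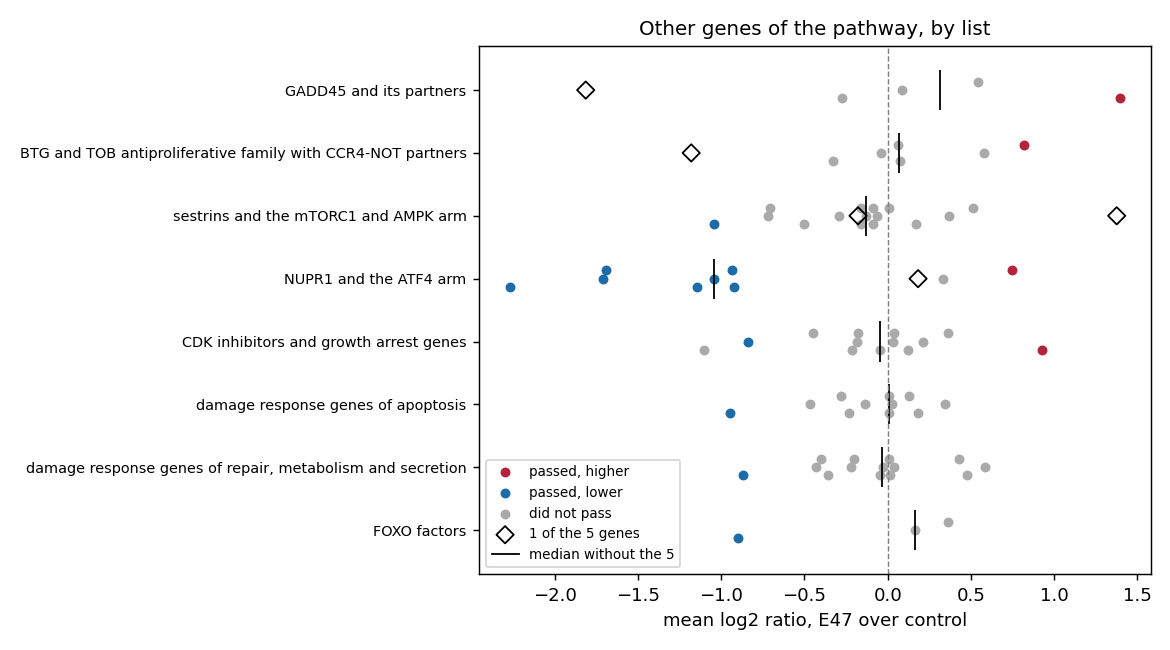
Mean log2 ratio of E47 over control (horizontal axis) of the measured genes of 8 lists (vertical axis), coloured by the limma call, with the 5 genes as open diamonds and a bar at the median of the other genes. The ATF4 list has a median of −1.04, and the other medians lie between −0.13 and 0.31.

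The named genes whose values over the 3 arrays lay nearest to each of the 5 were found by Euclidean distance, as a description. For GADD45A the nearest was ASNS, at a distance of 0.25, followed by PTPRZ1, a receptor tyrosine phosphatase, at 0.39 and STOML1 at 0.50. In ASNS and PTPRZ1, as in GADD45A, the Cy5 reading of extraction 2 was the lowest and the Cy3 reading the highest, an order that choosing by distance favours. For BTG1 the nearest were EEF2, the translation elongation factor, at 0.21, PHLDA1 at 0.31 and the glucose transporter SLC2A3 at 0.36. In all of them the Cy3 reading was the lowest, as in BTG1, which choosing by distance again favours.

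For SESN1 the nearest was GMNN, which encodes the replication inhibitor geminin, at 0.035, with readings of 1.46, 1.20 and 1.39. ADD3, an adducin of the membrane skeleton, and DNAJA1, a co-chaperone, followed at 0.15 each. Within a distance of 0.5 there were 3 named genes around GADD45A, 7 around BTG1 and 52 around SESN1. Around SESN2 and NUPR1, which lie among the many genes near 0, there were 2892 and 2349. The nearest to SESN2 were HINT1, PYROXD2 and RBM17, and NCL and FMOD were among the 3 nearest to NUPR1, each within 0.044, and in so dense a region such nearness sets no gene apart. Each likeness rests on 3 arrays, 2 of which share an extraction.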

How the data were processed

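The authors deposited 1 log ratio per spot and array, read here as log2; how spots were background-corrected and normalized, the log base and the direction were not stated in the sources used here. A largest value of 7.80 is beyond base 10, since the log10 of a 16-bit range is 4.82. The columns, dye swap included, correlated positively (r = 0.58 to 0.76), so no sign was turned. Spots with 1 symbol (17488) and a value on all 3 arrays were averaged per gene. The dye swap holds the same RNA and was averaged, which leaves 2 extractions and 1 residual degree of freedom. Ratios of 14008 features were tested against 0 with limma 3.58.1 in R 4.3.3 (lmFit, eBayes, Benjamini-Hochberg, threshold 0.05), tried first on simulated data. Control RNA served as the reference on every array, so its own spread was not estimated apart from that of the E47 RNA. The extractions are not stated to be separate cultures. Figures were drawn with matplotlib 3.10.9.

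The 5 genes and the 9 lists were chosen with earlier results of these data known. Of each list, up to 6 genes that passed were named by size, or else the 2 furthest from 0, besides relatives of the 5 and the 3 nearest profiles. The result of 1 list and 1 near gene are not reported here. All 5 symbols occur in RefSeq's dog genes (UU_Cfam_GSD_1.0), used for names only. Signal intensities and clone sequences were not used here.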

Additional observations from a re-analysis of the deposited data

How the results depend on the processing

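Each of the 5 genes had 1 sign on all 3 arrays, so leaving out or averaging arrays could not turn it. Each also had 1 clone with 2 complete spots, so choices over spots and clones left its ratio unchanged. With these limits, each of 16 alternatives kept the sign of all 5 genes. Over those that did not change the log base, GADD45A ranged from −2.01 to −1.62, BTG1 from −1.32 to −1.04, SESN1 from 1.27 to 1.48, SESN2 from −0.27 to −0.09 and NUPR1 from 0.13 to 0.24. Leaving out 1 extraction allows no test. Without extraction 1, GADD45A was at −1.72, BTG1 at −1.24, SESN1 at 1.27, SESN2 at −0.09 and NUPR1 at 0.21. Without extraction 2 the values were −1.91, −1.12, 1.48, −0.27 and 0.16 in the same order. Only the removal of the Cy5 array of extraction 2 cost a call among the 5, that of GADD45A at −1.62 and of BTG1 at −1.32. Their adjusted p-values in limma were then 0.0529 and 0.0540. SESN1 kept its call at 0.0478, so all 3 genes lay near the threshold of 0.05. The cause was not tested. The counts of named genes called higher and lower, 294 and 212, were 74 and 35 without that array, 448 and 471 without the Cy3 array, and 560 and 448 with 3 arrays taken as 3 replicates. They were 624 and 551 with named genes alone in the fit and 653 and 591 at a threshold of 0.1. A dye term gave 424 higher and 319 lower. Of the other pathway genes 4 were called higher and 11 lower. Removing the Cy5 array of extraction 2 left 1 and 3, and the counts were 11 and 19 both with named genes alone and at the threshold of 0.1. With 3 arrays as replicates 10 were higher, with each clone tested by itself 7 clones were higher, and with incomplete spots kept 7 were lower. Of 15 other pathway genes named with a call, 11 lost it under at least 1 alternative and none changed sign with a call. No paired analysis was possible because each array already holds both RNAs and there is 1 group of ratios. Signal over background is unknown, so dim spots could not be told from bright ones.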

Other observations

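Of the 145 genes in the lists other than the 5, 9 are on the array but had no spot with a value on all 3 arrays, GADD45G among them. The phosphatase PPM1D, which acts in the DNA damage response, had values on the Cy3 array alone, of 0.17 and 0.18. GADD45GIP1, a mitochondrial protein that binds GADD45 proteins, likewise read −0.01 and −0.07 on the Cy3 array alone. The factor FOXO4 read 0.07 and −0.17 in extraction 1 and −0.25 and −0.02 on the Cy5 array of extraction 2, with spots of 1 clone on both sides of 0 in extraction 1. IRS2, an insulin receptor substrate, had a single reading of 0.77 in extraction 1. CDKN2A, CDKN3, GAS6 and GDF15 had no value on any array. Among the 33 list genes with several clones, 11 had clones of opposite sign, and of the 7 of these 33 that passed the test GAS1 was the only one.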
